A study of Mus musculus with 53 samples.

Results

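Scavenger receptors and efferocytosis genes encode the proteins with which macrophages bind modified lipoproteins, microbes and dying cells. The 10 genes described here were chosen by name: the scavenger receptors Msr1, Marco, Scarb1 and Stab1, the receptor tyrosine kinases Mertk and Axl with their ligand Gas6, the phosphatidylserine-binding proteins Timd4 and Mfge8, and the transglutaminase Tgm2. They were 10 of the 23847 loci measured by RNA-seq in bone marrow-derived macrophages (BMDMs) of wild-type (WT) and Stat6-/- mice, aged 8-12 weeks and on a C57BL/6 background. Bone marrow cells were differentiated for 6 days in L929 supernatant, which the labels name as MCSF, and then received IL-4 at 20 ng/ml for 1, 3, 6 or 24 h or were kept as time-matched controls, with an untreated control at 0 h. The 53 libraries fell into 18 groups, with 4 WT libraries a group (3 for WT with IL-4 at 24 h, numbered 2, 3 and 4) and 2 Stat6-/- libraries a group. The knockout is a full body deletion, and all groups, controls included, share the L929 differentiation.

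In efferocytosis a dying cell exposes phosphatidylserine, which a macrophage binds either directly, as through Timd4 (Tim-4), or through a soluble bridge. Gas6 bridges phosphatidylserine to the TAM receptors, which include Mertk and Axl, and Mfge8 (lactadherin) bridges it to integrins. Class A scavenger receptors (Msr1 and Marco) bind modified lipoproteins and bacteria, Scarb1 (SR-BI) exchanges cholesterol with high-density lipoprotein, and Stab1 (stabilin-1) takes up extracellular ligands and also binds phosphatidylserine. IL-4 acts on macrophages through the transcription factor STAT6, and the comparisons ask how these genes respond to IL-4 with and without it.

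In resting WT BMDMs at 0 h the levels spanned from Stab1 down to Timd4, in FPKM (fragments counted for a gene, scaled to transcript length and library size). Stab1 stood at 151 ± 25.2 FPKM (mean ± SD, n = 4), Msr1 at 141 ± 20.0 and Gas6 at 137 ± 21.7, and the ranges of these 3 genes overlapped. Scarb1 followed at 79.7 ± 7.80 and Axl at 52.6 ± 14.4, whose highest library met the lowest of Scarb1 at 72.0 FPKM. Mfge8 (27.2 ± 5.98), Marco (19.9 ± 5.50), Mertk (17.8 ± 1.62) and Tgm2 (12.96 ± 3.41) came next, and the ranges of each neighbouring pair among them overlapped. Timd4, best known from resident macrophages of the peritoneum and liver, was listed at 0 in 19 of 53 libraries and never exceeded 0.156 FPKM. It was the only member below the filter of 1 FPKM in at least 1 sample, so 9 of 10 members were tested.

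Relative depth, read from the steps between low FPKM values, ranged from 0.706 to 1.55 times the median, and between 10017 and 10380 loci reached 1 FPKM. Stat6 was at 58.7-90.6 FPKM in WT and at 14.3-24.0 FPKM in Stat6-/- libraries, so residual transcript of the targeted gene was counted in every knockout library. Of 7 macrophage markers Csf1r (610-1081 FPKM), Cd68 (780-1678 FPKM), Emr1 (468-1840 FPKM) and Itgam (156-599.9 FPKM) were high in every library, whereas Cd14 (14.4-674 FPKM) and Fcgr1 (15.99-553 FPKM) ranged widely. Lyz2, with a median of 16530 FPKM, was listed at 0 in 7 libraries, so that a listed 0 need not mean absent RNA in these tables. Of the T cell markers, Cd3e stayed at or below 0.0717 FPKM, whereas Cd4 was at 0.738-15.5 FPKM. The stromal marker Col1a1 stayed at or below 0.393. Of the neutrophil markers, S100a8 was at 80.7-478 FPKM and S100a9 at 103-437 FPKM over all libraries. Since these are bulk samples, fewer cells expressing a gene and less RNA per cell cannot be told apart.

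**Figure D1:**
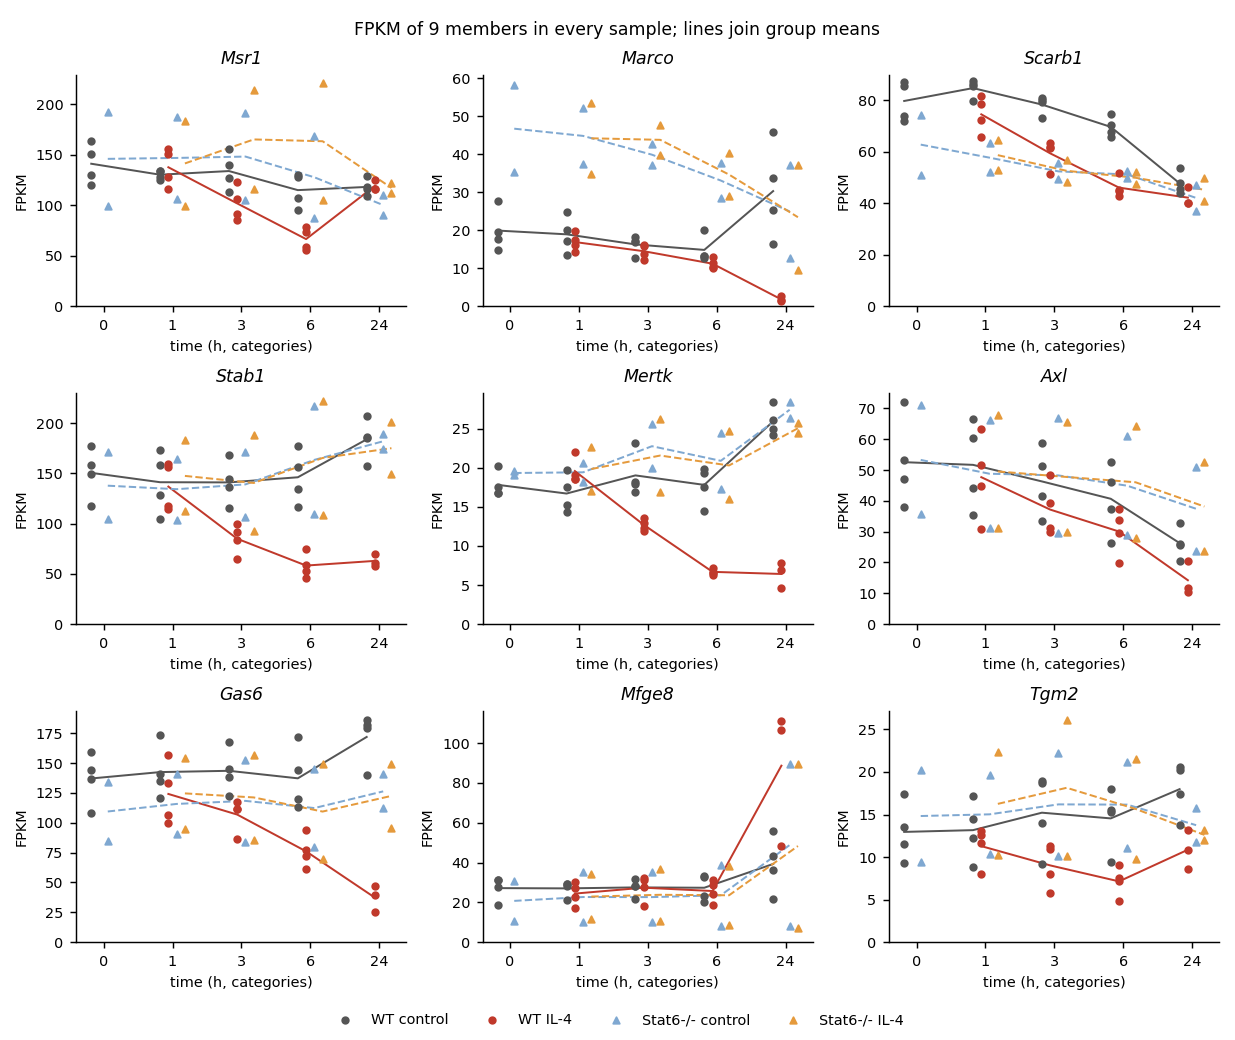
Level of the 9 tested members in every library, in FPKM (linear axis from 0), against time in hours drawn as evenly spaced categories. Circles are WT and triangles Stat6-/- libraries, coloured by treatment, and lines join group means. After 24 h of IL-4 the WT circles of Marco (1.20-2.52 FPKM) and Gas6 (25.1-46.9 FPKM) lie below every control, whereas the Stat6-/- triangles of the treatments lie together.

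IL-4 lowered up to 6 of the 9 tested members in WT BMDMs, from 3 h on, and the members that passed at 6 h and 24 h were not the same. Changes are differences of log2(FPKM + 1) from limma, fitted over all 53 libraries, and a gene passed the test at a Benjamini-Hochberg adjusted p under 0.05 over 11146 loci. At 1 h 0 of the 9 tested members passed, none of them had an unadjusted p under 0.05, and 3.72% of all loci passed as lower. At 3 h 3 of 9 passed as lower (Mertk, Scarb1 and Stab1) against 12.5% of loci, and at 6 h 6 of 9 did (those 3 with Gas6, Msr1 and Tgm2) against 19.2% of loci. At 24 h 5 of 9 passed as lower (Marco, Gas6, Mertk, Stab1 and Axl) against 31.6% of loci. No member passed as higher at any time. The members' median log2 change was -0.13, -0.40, -0.79 and -0.88 at 1, 3, 6 and 24 h, beside -0.02, 0.01, 0.00 and -0.07 over all loci tested. Every IL-4 library lay below every control library for 0, 4, 6 and 5 members at the 4 times, beside 7.81%, 18.1%, 22.3% and 37.1% of loci.

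A larger change, of at least 2-fold on this scale, was reached by 2 members at 6 h (Stab1 and Mertk, where 2.36% of loci were called lower) and by 4 members at 24 h (Marco, Gas6, Mertk and Stab1, where 4.58% of loci were). The study averaged its fold changes over individual animals, and libraries with the same replicate number deviated together (given under the processing), so each contrast was also fitted with the replicate number as a block. With the block 7 members passed as lower at 3 h, where Axl, Gas6, Msr1 and Tgm2 were added, and 7 at 6 h, where Axl was added. At 24 h the block added Tgm2 as lower and Mfge8 as higher. The shares over all loci are from the fit without the block. Counts of members passing with the block, here and below, therefore stand without a share, except for IL-4 in Stat6-/- BMDMs. With analysis of variance and Tukey's adjustment, the study's kind of test, 5 of these changes did not pass, at 3 h Stab1 and Mertk (adjusted p = 0.241 and 0.0505) and at 6 h Msr1, Gas6 and Tgm2 (adjusted p = 0.095, 0.119 and 0.265), and at 24 h Axl did not (adjusted p = 0.67).

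**Figure D2:**
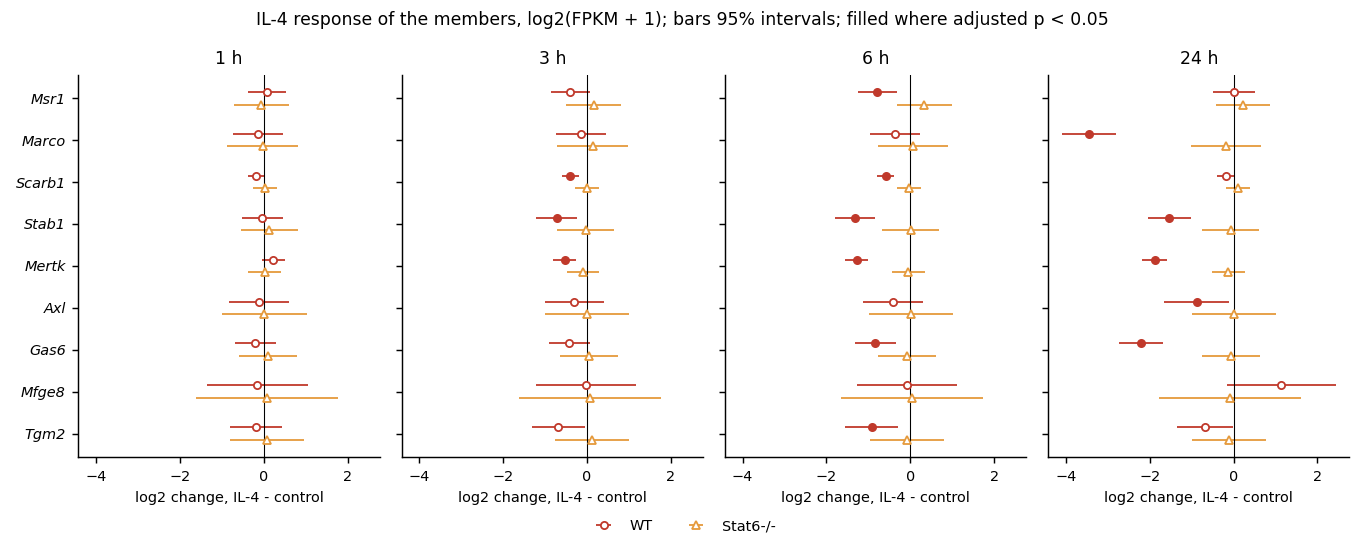
Difference of log2(FPKM + 1) between IL-4 and control at each time, for WT (circles) and Stat6-/- (triangles), with 95% intervals from the fit of all 53 libraries without the block. Filled symbols passed the test (adjusted p under 0.05). Filled symbols appear for WT alone, from 3 h on, and the interval of Marco at 24 h runs from -4.10 to -2.81.

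In mm10 coordinates as the tables give them, Stab1 (chr14:31139017-31168641, minus strand), the endocytic receptor stabilin-1, was lower from 3 h on and stayed low. At 6 h its level was 135, 117, 156 and 177 FPKM in the WT controls numbered 1 to 4 and 52.8, 46.3, 58.7 and 75.3 FPKM with IL-4. The groups did not overlap, and the IL-4 mean was 39.9% of the control mean. The log2 change was -1.32 (SE 0.24, adjusted p = 1.85e-05) at 6 h and -1.53 (SE 0.26, adjusted p = 4.44e-06) at 24 h, when controls held 157-207 FPKM and the IL-4 libraries 58.3, 60.9 and 69.6 FPKM. At 3 h the change was -0.73 (SE 0.24, adjusted p = 0.0169). Without the IL-4 library numbered 2 the 3 h change was -0.61 (limma adjusted p = 0.0761), and without the control numbered 4 it was -0.64 (limma adjusted p = 0.0631). It did not pass either without all libraries of any WT number (-0.70 to -0.76, limma adjusted p between 0.0649 and 0.0867). Of the exonic bases of Stab1 1.09% (112 bases) lie over exons of Nt5dc2 on the other strand, and strand was not stated for these libraries. Nt5dc2 itself averaged 63.3 FPKM in controls and 19.7 FPKM with IL-4 at 6 h, and its part in the Stab1 value was not tested.

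Marco (chr1:120474538-120505084, minus strand), a class A scavenger receptor that binds bacteria and particles, was late and had the largest change of the 9 tested members at 24 h. In WT the 24 h controls numbered 1 to 4 held 25.2, 16.2, 33.7 and 45.9 FPKM, and the IL-4 libraries numbered 2, 3 and 4 held 1.20, 1.45 and 2.52 FPKM. All 3 treated libraries were far under the lowest control, at 0.0431-0.0741 times the control of the same number. The log2(FPKM + 1) change was -3.46 (SE 0.32, adjusted p = 1.26e-11), and since the added 1 FPKM weighs on levels this low it was -4.02 with 0.1 FPKM added. At 6 h the controls held 13.2, 13.3, 12.7 and 19.9 FPKM and the IL-4 libraries 11.4, 10.2, 10.1 and 12.9 FPKM, so that the groups overlapped (log2 change -0.36, SE 0.29, limma adjusted p = 0.342).

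Msr1 (scavenger receptor A, chr8:39581700-39642678, minus strand), the other class A receptor, was lower at 6 h but not at 24 h. The 6 h controls held 130, 128, 107 and 94.95 FPKM and the IL-4 libraries 73.4, 77.9, 58.7 and 55.4 FPKM, without overlap (log2 change -0.79, SE 0.23, adjusted p = 0.00484). At 24 h the control and IL-4 means were 118 ± 8.28 FPKM (n = 4) and 119 ± 4.99 FPKM (n = 3), a log2 difference of 0.01 with a 95% interval of -0.48 to 0.51. At 3 h the change was -0.40 (limma adjusted p = 0.21, and 0.0105 with the block).

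Scarb1 (chr5:125277087-125341094, minus strand), the high-density lipoprotein receptor, was also lower at 3 h and 6 h, by less. Its IL-4 mean was 75.8% of the control mean at 3 h (log2 change -0.40, SE 0.10, adjusted p = 0.00169) and 66.1% at 6 h (log2 change -0.59, SE 0.10, adjusted p = 6.15e-06). At 6 h the controls lay at 65.6-74.7 FPKM and the IL-4 libraries at 42.6-51.9 FPKM. At 24 h the controls had themselves come down to 47.7 ± 4.18 FPKM (n = 4), and the IL-4 libraries stood at 42.1 ± 3.56 FPKM (n = 3, log2 change -0.17, 95% interval -0.39 to 0.04).

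Mertk (chr2:128698997-128802188, plus strand), the TAM receptor most tied to the uptake of apoptotic cells by macrophages, was lower at 3, 6 and 24 h. At 6 h the controls held 19.4, 14.5, 17.5 and 19.9 FPKM and the IL-4 libraries 6.67, 6.29, 7.23 and 6.56 FPKM. The treated libraries were tightly grouped and all under the lowest control (log2 change -1.28, SE 0.14, adjusted p = 4.41e-10). At 24 h the controls, at 24.2-28.4 FPKM, stood against 4.60, 6.88 and 7.76 FPKM with IL-4, a mean of 24.7% of control (log2 change -1.89, SE 0.15, adjusted p = 1.77e-13). The 3 h change was -0.54 (SE 0.14, adjusted p = 0.00187).

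Axl (chr7:25756500-25788733, minus strand), the second TAM receptor among the members, varied widely between replicate numbers, in controls as with IL-4. The 24 h controls numbered 1 to 4 held 32.9, 26.1, 25.7 and 20.4 FPKM and the IL-4 libraries numbered 2, 3 and 4 held 20.6, 11.8 and 10.3 FPKM. The groups overlapped slightly, since the IL-4 library numbered 2 lay above the control numbered 4, but each IL-4 library was below the control of its own number (0.457-0.791 times it). The log2 change was -0.88 (SE 0.38, adjusted p = 0.0468). It did not pass without the IL-4 library numbered 3 or 4 or without the control numbered 1, 2 or 3, when it was between -0.70 and -0.89 (limma adjusted p between 0.0689 and 0.18), nor without the filter on low values (limma adjusted p = 0.0952) or with quantile normalization (-0.83, limma adjusted p = 0.0582). With the block it was -0.75 (SE 0.08, limma adjusted p = 4.07e-10), and Axl passed at 3 h (-0.30, limma adjusted p = 0.000803 with the block and 0.597 without) and 6 h (-0.42, limma adjusted p = 8.58e-06 with the block and 0.36 without).

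Gas6 (chr8:13465374-13494535, minus strand), the ligand of both TAM receptors, was lower along with them. At 6 h the controls held 120, 113, 145 and 172 FPKM and the IL-4 libraries 72.3, 61.2, 77.1 and 93.5 FPKM (log2 change -0.84, SE 0.24, adjusted p = 0.00465). At 24 h the controls held 182, 140, 179 and 186 FPKM and the IL-4 libraries 25.1, 39.7 and 46.9 FPKM. The IL-4 mean was 21.7% of control, and the groups were far apart (log2 change -2.21, SE 0.26, adjusted p = 4.82e-09). At 3 h the groups did not overlap either, with a log2 change of -0.42 (limma adjusted p = 0.209, and 4.23e-05 with the block). Exons of Tmem255b cover 1.33% of the exonic bases of Gas6 on the other strand, and Tmem255b was listed at 0 in all 53 libraries.

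Mfge8 (chr7:79133768-79149060, minus strand), the bridge from phosphatidylserine to integrins, was the only tested member with a 24 h change above 0.1 on the log2 scale in the direction of more RNA. The 24 h controls numbered 1 to 4 held 36.0, 21.6, 43.4 and 56.1 FPKM and the IL-4 libraries numbered 2, 3 and 4 held 48.5, 106 and 111 FPKM. The lowest IL-4 library lay below the highest control, but each was 1.98-2.45 times the control of its own number. Without the block the change was 1.14 on the log2 scale (SE 0.64, limma adjusted p = 0.129), and with it 1.15 (SE 0.23, limma adjusted p = 5.12e-05). At 1, 3 and 6 h the IL-4 mean was 90.3%, 99.5% and 94.0% of the control mean.

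Tgm2 (chr2:158116405-158146392, minus strand), the enzyme transglutaminase 2, which macrophages also use as a coreceptor in apoptotic cell uptake, was lower at 6 h. The controls held 15.3, 17.95, 15.5 and 9.40 FPKM and the IL-4 libraries 7.53, 9.02, 7.14 and 4.87 FPKM. The libraries numbered 4 were the lowest of each group, and the groups did not overlap (log2 change -0.93, SE 0.31, adjusted p = 0.0148). Without the IL-4 library numbered 4 the change was -0.78 (limma adjusted p = 0.0618), and without the control numbered 2 it was -0.82 (limma adjusted p = 0.0519). It did not pass either without all libraries of number 1, 2 or 3 (-0.89 to -0.93, limma adjusted p between 0.0632 and 0.098). At 3 h it was -0.68 (limma adjusted p = 0.0981, and 1.25e-05 with the block), and at 24 h -0.68 (limma adjusted p = 0.0819), or -0.60 with the block (limma adjusted p = 0.000139). Exons of Rprd1b and Gm20412 on the other strand cover 8.03% and 13.7% of the exonic bases of Tgm2, and Rprd1b stayed at or below 9.42 FPKM.

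Markers of macrophages and of other cell types moved with IL-4 in the same WT libraries. The summed FPKM of the 7 macrophage markers at 24 h was 22040-28000 in controls and 6663-8057 with IL-4, and without Lyz2 it was 3550-4050 and 2613-2644. Of the 7 genes, Lyz2, Csf1r, Emr1, Fcgr1 and Cd14 were lower without overlap. Cd14, the lipopolysaccharide coreceptor, went from 209-331 to 14.4-23.4 FPKM at 24 h and from 391-674 to 54.6-67.6 FPKM at 6 h. At 6 h the sum without Lyz2 was 3595-4020 in controls and 3011-3318 with IL-4.

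The summed FPKM of 5 dendritic cell markers was 4.83-7.20 in controls against 16.4-23.6 with IL-4 at 6 h and 8.72-17.7 against 209-290 at 24 h, of which Itgax reached 288 while Flt3 and Zbtb46 stayed at or below 0.678 and 0.702. That of 4 endothelial markers was 2.28-3.64 against 14.7-19.2 at 6 h and 4.41-5.89 against 3.11-3.55 at 24 h, with Pecam1 at 14.3-19.0 FPKM under IL-4 at 6 h, Cdh5 at or below 0.283 and Tek at or below 0.0178 in every library. That of 4 T cell markers was 4.56-8.04 against 2.07-3.46 at 6 h and 8.03-15.5 against 0.738-1.37 at 24 h, with Cd3e, Cd3d and Cd8a at or below 0.147 in every library and Cd4 up to 15.5. The sum of 4 cell cycle markers at 24 h was 28.6-55.6 in controls against 14.5-24.6 with IL-4, that of 6 neutrophil marker loci 443-614 against 220-320, and that of 6 stromal markers 0.292-0.802 against 0.160-0.204, while at 6 h the ranges of these 3 sums overlapped. The part of these markers in the members' values was not tested.

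The time course of the response differed between members. A contrast of the 24 h response with the 6 h response, chosen after the values were seen, passed for 4 of 9 members, where 27.8% of loci passed. The response of Marco was lower by a further -3.09 (SE 0.43, adjusted p = 5.14e-07), that of Gas6 by -1.37 (SE 0.36, adjusted p = 0.00308) and that of Mertk by -0.60 (SE 0.20, adjusted p = 0.0213). The response of Scarb1 went the other way, by 0.41 (SE 0.15, adjusted p = 0.0302). Msr1 differed by 0.80 (SE 0.33, limma adjusted p = 0.0707, and 0.000423 with the block), Mfge8 by 1.22 (limma adjusted p = 0.316, and 0.00162 with the block), Axl by -0.46 (limma adjusted p = 0.542, and 0.0123 with the block), and Stab1 by -0.21 (95% interval -0.92 to 0.50). Tgm2, which passed at 6 h and not at 24 h, differed by 0.245 (limma adjusted p = 0.732, and 0.143 with the block). Mertk did not pass without the 24 h IL-4 library numbered 2 (-0.41, limma adjusted p = 0.137) or the 6 h control numbered 2 (-0.51, limma adjusted p = 0.062), with quantile normalization (-0.50, limma adjusted p = 0.0593), or without all libraries of WT number 1, 2 or 3, number 2 giving the smallest value (-0.36, limma adjusted p = 0.299). Scarb1 did not pass without any of 6 libraries (the 24 h IL-4 library numbered 2, the 24 h controls numbered 2 and 4, the 6 h IL-4 libraries numbered 1 and 2 and the 6 h control numbered 3), with values between 0.35 and 0.40 (limma adjusted p between 0.0514 and 0.106). Nor did it without the filter on low values (limma adjusted p = 0.0567) or without all libraries of number 1, 2 or 4 (0.42, 0.29 and 0.43, limma adjusted p = 0.0967, 0.272 and 0.112).

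The promoters of the 4 members called at 24 h are shown because these genes were lower together. RefSeq starts were available for 7 of the 10 members, and the 250 bases before the start are given 5′ to 3′ on the gene's strand (GRCm38.p6, the assembly also called mm10). Capitals mark GGGCGGG or GAGGAAG on either strand. These 2 motifs were chosen after the sequences were seen. The windows are chr1:120505025-120505274 (minus strand), chr8:13494536-13494785 (minus), chr2:128698665-128698914 (plus) and chr14:31168642-31168891 (minus).
Marco: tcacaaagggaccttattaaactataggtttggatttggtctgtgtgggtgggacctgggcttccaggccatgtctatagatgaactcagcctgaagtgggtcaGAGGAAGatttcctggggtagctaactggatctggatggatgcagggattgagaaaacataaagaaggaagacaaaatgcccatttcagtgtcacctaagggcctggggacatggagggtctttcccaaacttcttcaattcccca
Gas6: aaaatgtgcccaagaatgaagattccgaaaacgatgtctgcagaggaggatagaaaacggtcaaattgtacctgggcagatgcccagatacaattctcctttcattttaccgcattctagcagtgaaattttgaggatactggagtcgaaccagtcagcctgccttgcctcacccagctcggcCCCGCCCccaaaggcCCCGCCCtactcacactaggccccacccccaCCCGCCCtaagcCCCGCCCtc
Mertk: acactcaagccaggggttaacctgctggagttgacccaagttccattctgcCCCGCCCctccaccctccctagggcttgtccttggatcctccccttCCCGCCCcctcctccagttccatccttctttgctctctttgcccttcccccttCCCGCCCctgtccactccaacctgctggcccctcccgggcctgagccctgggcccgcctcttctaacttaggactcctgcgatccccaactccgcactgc
Stab1: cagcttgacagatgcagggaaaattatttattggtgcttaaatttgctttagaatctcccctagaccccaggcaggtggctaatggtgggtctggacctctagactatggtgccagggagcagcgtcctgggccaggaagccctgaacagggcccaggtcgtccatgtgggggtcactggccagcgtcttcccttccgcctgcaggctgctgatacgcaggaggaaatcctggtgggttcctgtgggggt
Gas6 held 4 copies of GGGCGGG, beginning 67, 52, 21 and 9 bases before the start, and Mertk held 3, beginning 199, 153 and 100 bases before it. The same letters occurred in 23.4% of 32851 promoter windows of this length. Marco held GAGGAAG beginning 146 bases before the start, a string found in 10.6% of windows. The Marco window held 0 CpG dinucleotides, that of Stab1 5, that of Mertk 7 and that of Gas6 10, beside a median of 6 over all windows. None of the 7 member windows held TTC and GAA with 4 bases between them, the spacing bound by STAT6 (5.85% of windows), or with 3 bases between them, the spacing of other STAT proteins (7.02%). None held a direct repeat of AGGTCA with 4 bases between the copies, the form bound by LXR (0.015%). Each was searched on both strands.

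In Stat6-/- BMDMs none of the 9 tested members passed for IL-4 at 1, 3, 6 or 24 h, with limma, where 0% of all loci passed at each time. No member had an unadjusted p under 0.05, against 51, 131, 88 and 37 of all loci, and none passed with the block, where 2, 4, 4 and 1 of all loci did. At 24 h Marco held 37.2 and 12.6 FPKM in the controls numbered 1 and 2 and 37.2 and 9.56 FPKM with IL-4. Gas6 held 141 and 112 FPKM in controls and 150 and 95.4 FPKM with IL-4, and Mertk 26.4 and 28.4 FPKM in controls and 25.7 and 24.4 FPKM with IL-4. The spread between the numbers was wider than the difference between treatments for Marco and Gas6. Msr1 had the largest log2 difference of the members at 6 h (0.33, 95% interval -0.32 to 0.98) and at 24 h (0.23, 95% interval -0.42 to 0.88), in the direction of more RNA with IL-4. It held 86.9 and 168 FPKM in the 6 h controls numbered 1 and 2 and 106 and 221 FPKM with IL-4, 1.21 and 1.31 times the control of the same number. At 24 h Msr1 held 110 and 90.1 FPKM in controls against 113 and 122 FPKM with IL-4, without overlap. The 24 h groups of Mertk did not overlap either, in the direction of less RNA with IL-4. The share of all loci without overlap in Stat6-/- is not given here. With 2 libraries a group the 95% interval of the 24 h log2 change ran from -1.02 to 0.66 for Marco, from -0.76 to 0.62 for Gas6, from -0.51 to 0.26 for Mertk and from -1.77 to 1.62 for Mfge8.

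The difference in IL-4 response between the genotypes was tested directly. At 1 h and 3 h 0 of 9 members passed, where 1.15% and 4.22% of loci passed with the lower response in WT, and with limma 0 and 1 members had an unadjusted p under 0.05. At 6 h 4 of 9 passed with the lower response in WT against 7.19% of loci, and 3 of them differed by at least 1 on the log2 scale against 1.81% of loci. These were Stab1 (-1.33, SE 0.41, adjusted p = 0.0205), Mertk (-1.23, SE 0.24, adjusted p = 0.000154), Msr1 (-1.12, SE 0.39, adjusted p = 0.0446, from -0.79 in WT and 0.33 in Stat6-/-) and, with a smaller difference, Scarb1 (-0.55, SE 0.17, adjusted p = 0.021). At 24 h 4 of 9 passed against 14.8% of loci, and all 4 differed by at least 1 against 3.51% of loci. These were Marco (-3.27, SE 0.52, adjusted p = 8.64e-06), Gas6 (-2.14, SE 0.43, adjusted p = 0.00022), Mertk (-1.76, SE 0.24, adjusted p = 6.32e-07) and Stab1 (-1.46, SE 0.42, adjusted p = 0.00869).

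Some of the 6 h differences did not pass when 1 library was left out. Without the Stat6-/- IL-4 library numbered 1 Stab1 differed by -0.82 (limma adjusted p = 0.261), and without the Stat6-/- control numbered 2 by -0.84 (limma adjusted p = 0.245). Msr1 did not pass without any of 7 libraries, and its difference was -0.59 without the Stat6-/- IL-4 library numbered 2 and -0.65 without the Stat6-/- control numbered 1 (limma adjusted p = 0.405 and 0.382). Scarb1 did not pass without the Stat6-/- IL-4 library numbered 1 (-0.49, limma adjusted p = 0.107) or the Stat6-/- control numbered 1 (-0.52, limma adjusted p = 0.0838). The other 5 libraries for Msr1 were WT ones (the IL-4 libraries numbered 3 and 4 and the controls numbered 1, 2 and 3), without which it was between -1.04 and -1.15 (limma adjusted p between 0.0514 and 0.0801). With the compared groups alone Stab1 and Msr1 did not pass at 6 h (limma adjusted p = 0.0877 and 0.128), and Msr1 did not without the filter on low values (limma adjusted p = 0.0907). Without all libraries of a WT number, Msr1 did not pass for any of the 4 (limma adjusted p between 0.0927 and 0.141), Scarb1 not for number 1, 2 or 4 (0.0657, 0.0542 and 0.0542) and Stab1 not for number 1 or 3 (0.0702 and 0.0876), and Scarb1 did not pass without Stat6-/- number 1 (-0.45, limma adjusted p = 0.0835). Mertk passed at 6 h and 24 h whichever library or number was left out, as did Marco, Gas6 and Stab1 at 24 h. With the block, which removes the level of each number, 4 members passed at 3 h (Gas6, Mertk, Stab1 and Tgm2), Axl, Gas6 and Tgm2 were added at 6 h, and Axl (-0.77, limma adjusted p = 1.14e-05) and Mfge8 (1.23, limma adjusted p = 0.00826) were added at 24 h. Of these, without the block, the Mfge8 difference at 24 h ran from -0.53 to 2.97 and the Axl difference at 6 h from -1.02 to 0.16 as libraries were left out. Both changed direction without the Stat6-/- IL-4 library numbered 2 or the Stat6-/- control numbered 1 of that time. These refits, like those of Stab1, Msr1 and Scarb1 without 1 Stat6-/- library, set 1 number against the mean of both. The level of that number therefore enters the difference. In Stat6-/- the ratio of IL-4 to the control of the same number was 0.999 and 0.887 for Mfge8 at 24 h. For Axl at 6 h it was 0.963 and 1.05.

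**Figure D3:**
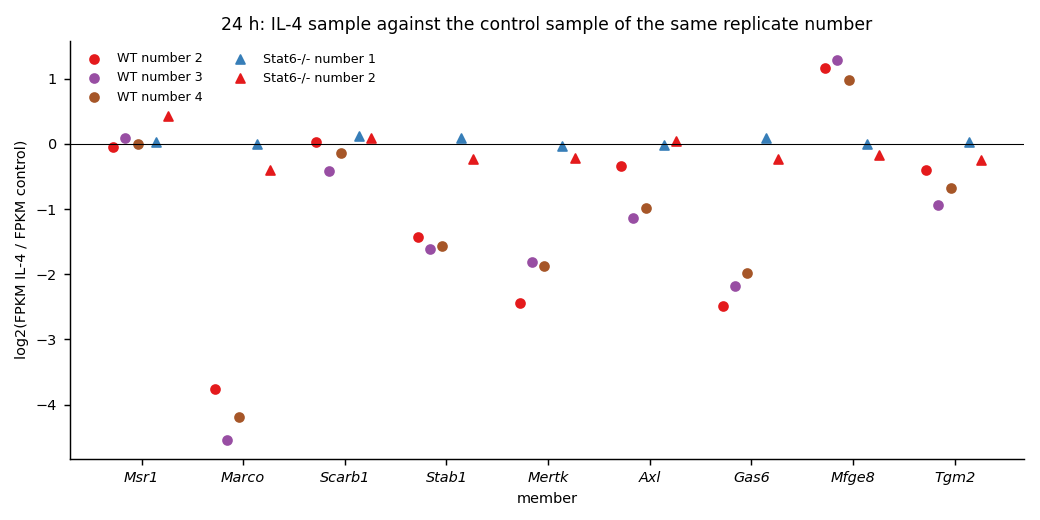
Ratio of the IL-4 library to the control library of the same replicate number at 24 h, as log2 of FPKM with nothing added, for each tested member; circles are WT numbers 2, 3 and 4 and triangles Stat6-/- numbers 1 and 2. The 3 WT circles of Mfge8 (ratios 1.98-2.45) lie above 0 and those of Marco, Gas6, Mertk, Stab1, Axl and Tgm2 below it.

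Several members differed between the replicate numbers of a genotype in group after group. Axl was highest in WT number 1 and lowest in WT number 4 in 8 of 8 WT groups with 4 libraries, with means over the 5 control times of 56.6, 47.5, 39.2 and 30.7 FPKM for numbers 1 to 4. Tgm2 was lowest in number 4 in 8 of 8 groups, and Gas6 was highest in number 4 and lowest in number 2 in 8 of 8. Between the 2 Stat6-/- numbers the control means were wider apart for some members, such as Mfge8. They were not for Marco (36.9 and 38.8 FPKM, against 17.5-24.2 in WT) or Mertk (23.4 and 20.6 FPKM, against 17.6-22.3 in WT). Within times Marco did differ, with number 2 at 1.65 times number 1 in the 0 h controls and 0.34 times in the 24 h controls. Mfge8 averaged 45.9 FPKM in the controls of number 1 and 9.42 FPKM in those of number 2, and number 2 was at 0.0784-0.349 times number 1 over the 9 groups. Axl went the other way, with number 2 at 1.99-2.3 times number 1 in 9 of 9 groups. Tgm2 was higher in number 2 in 9 of 9 groups, and Stab1 and Gas6 were lower in it in 9 of 9. In the same libraries the summed FPKM of 6 macrophage markers without Lyz2 was 3509-4068 in the number 1 controls and 4107-4863 in the number 2 controls, and that of the dendritic cell markers 10.3-39.6 and 6.78-8.64. Their part in these differences was not tested.

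**Figure D4:**
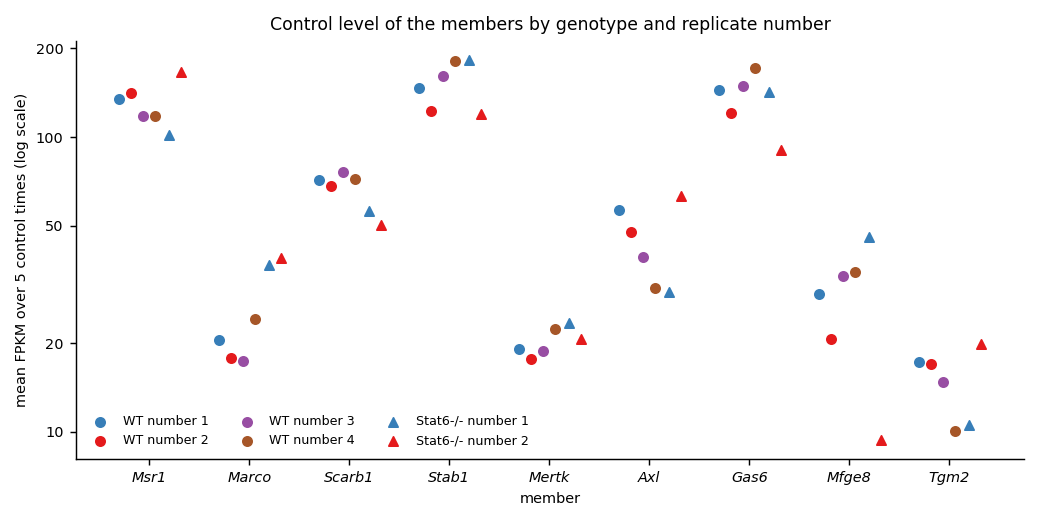
Mean FPKM over the 5 control times (log axis) of each tested member, by genotype (circles WT, triangles Stat6-/-) and replicate number (colour). The triangles of Mfge8 (45.9 and 9.42 FPKM) are the farthest apart, and the 4 WT circles of Axl are in the order of their numbers.

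Without IL-4, no member differed between the genotypes when control times were averaged within each number, with limma on 4 WT and 2 Stat6-/- profiles, where 0.0179% of loci passed and 2 members had an unadjusted p under 0.05. These were Marco and Scarb1. Marco averaged 20.6, 17.8, 17.5 and 24.2 FPKM in WT numbers 1 to 4 and 36.9 and 38.8 FPKM in the Stat6-/- numbers, which did not overlap (log2 difference 0.88, SE 0.13, limma adjusted p = 0.102). Scarb1 averaged 71.6, 68.1, 76.0 and 72.2 FPKM in WT and 56.0 and 50.3 FPKM in Stat6-/- (log2 difference -0.42, SE 0.07, limma adjusted p = 0.108). Without Stat6-/- number 1 the differences were 0.83 and -0.48, but only 1 Stat6-/- profile is left there, so no test is read from that fit. Both passed when the 5 control contrasts were averaged in the fit of all 53 libraries, which counts the times of one number as separate samples. Genotype and culture cannot be told apart with 2 knockout numbers. Other markers differed between the same controls: at 0 h the summed FPKM of the neutrophil marker loci was 419-542 in WT and 764-859 in Stat6-/-, that of the cell cycle markers 45.3-80.9 and 19.1-33.8, and that of 4 mast cell and basophil markers 0.351-0.632 and 1.36-1.72. Their part in the values of Marco and Scarb1 was not tested. The level of Marco in the Stat6-/- controls also moved with time in number 2 alone, from 58.1 FPKM at 0 h to 12.6 FPKM at 24 h, while number 1 held 35.3 and 37.2 FPKM.

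Time in culture without IL-4 moved the baseline of some members. Between 0 h and 24 h in WT controls Mertk rose (log2 change 0.52, SE 0.14, adjusted p = 0.00684) and Scarb1 fell (-0.73, SE 0.10, adjusted p = 2.09e-06), 2 of 9 members where 17.2% of loci passed in either direction. Mertk did not pass without all libraries of number 1 (0.49, limma adjusted p = 0.0875) or number 3 (0.52, limma adjusted p = 0.062). With the block Axl was also lower (-0.95, limma adjusted p = 2.26e-12 with the block and 0.0543 without) and Stab1, Gas6 and Tgm2 were higher, by 0.30, 0.33 and 0.46 (limma adjusted p = 0.0109, 0.00148 and 0.00277 with the block). In Stat6-/- controls Scarb1 passed (-0.55, SE 0.14, adjusted p = 0.0488), 1 of 9 members where 0.718% of loci passed. It did not pass without the Stat6-/- control numbered 1 at 0 h (-0.29, limma adjusted p = 0.315) or at 24 h (-0.39, limma adjusted p = 0.18). With the block Mertk (0.48, limma adjusted p = 0.00864) and Stab1 (0.44, limma adjusted p = 0.0174) passed as higher and Axl as lower (-0.51, limma adjusted p = 0.000526).

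Other genes of the pathway passed in both directions with IL-4 in WT, as did 23.4% of all loci as higher and 31.6% as lower at 24 h. These counts are small, many lie near those shares, and they are given as a description. Among 17 other scavenger receptors, of which 11 were tested, 2 passed as higher and 5 as lower at 24 h, with a median log2 change of -0.30. Cd5l, a secreted scavenger protein of macrophages, had 140 ± 21.6 FPKM (n = 4) in controls and 27.7 ± 5.51 FPKM (n = 3) with IL-4 (log2 change -2.299, SE 0.20, adjusted p = 4.28e-12). Cxcl16, a chemokine and receptor for oxidised lipoprotein, had 112 ± 19.4 and 22.9 ± 0.803 FPKM (log2 change -2.22, SE 0.28, adjusted p = 1.78e-08). Cd36, the fatty acid and oxidised lipoprotein receptor, went the other way, from 613 ± 113 to 1518 ± 87.8 FPKM (log2 change 1.32, SE 0.41, adjusted p = 0.00594), but its genotype difference did not pass (1.35, limma adjusted p = 0.129). Olr1 (LOX-1) rose early, from 0.0621 ± 0.0298 to 1.75 ± 0.138 FPKM at 3 h (n = 4 each, log2 change 1.37, SE 0.06, adjusted p = 1.01e-20). Its 3 h controls lay at 0.0365-0.105 FPKM, below the filter of 1 FPKM, and its IL-4 libraries at 1.63-1.95 FPKM. The tests of Olr1 are therefore not independent of that filter, and the added 1 FPKM limits the size of its change. The genotype difference passed for Cd5l, Cxcl16 and Olr1 (adjusted p = 2.67e-06, 0.000185 and 1.52e-12).

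Among 20 other phosphatidylserine receptors and bridging proteins, 16 of them tested, 4 passed as higher and 5 as lower at 24 h, with a median of -0.03. Thbs1 (thrombospondin-1), a bridging protein, had 72.3 ± 14.9 FPKM in the 24 h controls and 3.31 ± 0.812 FPKM with IL-4 (log2 change -4.08, SE 0.20, adjusted p = 3.73e-19). Itgb3, the integrin subunit that pairs with the alpha-v chain to bind Mfge8, had 1.63 ± 0.417 and 16.1 ± 1.52 FPKM at 6 h (n = 4 each, log2 change 2.71, SE 0.22, adjusted p = 4.85e-13). Anxa1 rose from 801 ± 76.6 to 2364 ± 226 FPKM at 24 h (log2 change 1.56, SE 0.26, adjusted p = 2.98e-06), and C1qa, a chain of the complement opsonin C1q, fell from 722 ± 174 to 318 ± 41.5 FPKM (log2 change -1.16, SE 0.35, adjusted p = 0.00535). The genotype difference passed at the same times for Thbs1, Itgb3 and Anxa1 (adjusted p = 1.76e-12, 2.18e-06 and 0.00754) and not for C1qa (limma adjusted p = 0.0979).

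Of 18 genes of engulfment and corpse processing, 17 were tested, and 5 passed as higher and 5 as lower at 24 h (median -0.12). The cholesterol exporter Abca1 fell from 53.3 ± 5.38 to 14.5 ± 3.81 FPKM at 24 h (log2 change -1.84, SE 0.22, adjusted p = 5.43e-09), and Elmo2, an adaptor of the Rac exchange factor Dock1, rose from 20.8 ± 0.623 to 54.4 ± 10.4 FPKM (log2 change 1.33, SE 0.11, adjusted p = 1.86e-12). Of 8 shedding proteases and don't-eat-me signals 7 were tested, and 1 passed as higher and 4 as lower at 24 h (median -0.49). Lilrb3, the files' name for the inhibitory receptor Pirb, fell from 262 ± 26.5 to 111 ± 6.24 FPKM (log2 change -1.22, SE 0.18, adjusted p = 3.96e-07). Of 7 other transglutaminases 3 were tested and 2 passed as lower at 24 h (median -0.38), among them F13a1, coagulation factor XIII A, with 18.2 ± 5.83 and 7.05 ± 1.16 FPKM (log2 change -1.21, SE 0.51, adjusted p = 0.0407). Its genotype difference did not pass (-1.44, limma adjusted p = 0.203). F13a1 did not pass without the filter on low values (limma adjusted p = 0.0843), with quantile normalization (limma adjusted p = 0.0524) or with Tukey's adjustment (adjusted p = 0.611). It did not pass either without any of the 3 IL-4 libraries or the controls numbered 3 and 4 (limma adjusted p between 0.0559 and 0.103). The same held without all libraries of any WT number (limma adjusted p between 0.0671 and 0.195). Cd36 and C1qa did not pass with Tukey's adjustment (adjusted p = 0.192 and 0.183) or without all libraries of WT number 3 (limma adjusted p = 0.0674 and 0.0604). Of 8 lipid-sensing nuclear receptors 6 were tested, and 1 passed as higher and 2 as lower at 24 h (median -0.27). Pparg rose from 35.2 ± 3.49 to 80.5 ± 3.23 FPKM at 24 h (log2 change 1.18, SE 0.13, adjusted p = 1.56e-09), and Nr1h3, which encodes LXR-alpha, fell from 16.4 ± 1.58 to 7.59 ± 1.51 FPKM at 3 h (log2 change -1.03, SE 0.14, adjusted p = 2.04e-07). The genotype difference passed for Abca1, Elmo2, Lilrb3, Pparg and Nr1h3 (adjusted p = 0.000325, 1.54e-06, 0.00243, 0.000169 and 0.00303). In Stat6-/- BMDMs 0 genes of these 6 lists passed at any time with limma, as for all loci.

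**Figure D5:**
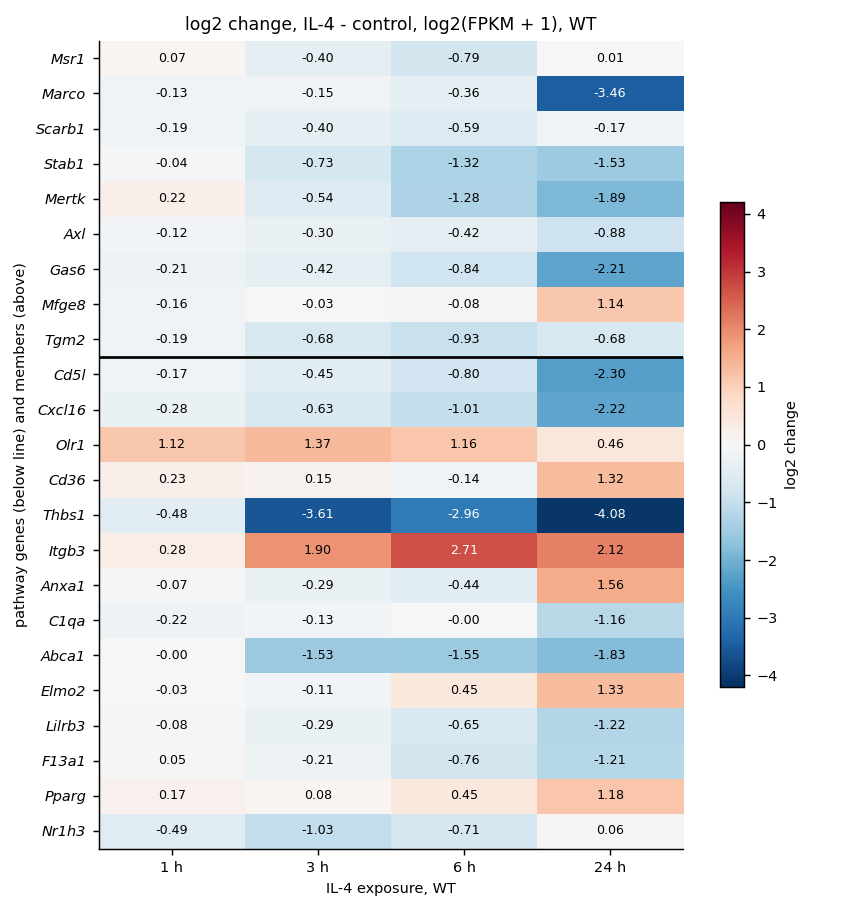
Difference of log2(FPKM + 1) between IL-4 and control in WT at 1, 3, 6 and 24 h for the 9 tested members (above the line) and the pathway genes named from the lists (below it), with the value in each cell. Blue is lower and red higher with IL-4. Marco (-3.46) and Thbs1 (-4.08) have the lowest values at 24 h, and Itgb3 (2.71) has the highest value, at 6 h.

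The group means of some members followed each other over the 18 groups. Pearson's r of mean log2(FPKM + 1) was 0.96 between Stab1 and Mertk, 0.80 between Mertk and Gas6, and 0.75 between Marco and Mertk. It was -0.88 between Marco and Mfge8 and -0.87 between Axl and Mfge8. The loci nearest to Stab1 by this measure were Rcbtb2 (r = 0.99), Peli2 (0.98) and Tmem164 (0.98), and those nearest to Mertk were 4933426M11Rik (0.98), Camk1d (0.98) and Arhgap18 (0.97). Nearest to Marco were Fam213b (0.97), Aif1 (0.96) and Mmp14 (0.96), and to Gas6 Cd82 (0.97), Susd1 (0.97) and Smpdl3a (0.96). These values describe 18 means that share libraries, replicate numbers and controls.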

How the data were processed

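The deposited tables held FPKM values per gene, which the authors made from paired 100 bp reads of poly-A RNA (1 µg a library, TruSeq kit). TopHat2 2.0.7, Cufflinks 2.0.2 and mm10 are named in the submitters' processing notes, and the annotation is not given in the sources used here. Tables were joined by locus and symbol, giving 23847 loci, and 4316 values under 1e-06 FPKM were set to 0. FPKM keeps no read counts, so absolute depth is unknown and no count model was used. Values were tested as log2(FPKM + 1) with limma 3.58.1 (R 4.3.3, trend, two-sided, Benjamini-Hochberg) over the 11146 loci at 1 FPKM or more in at least 1 sample, with 1 mean per group over all 53 samples. Members called also changed by at least 1 on the log2 scale. On simulated data with independent noise and no effect of the replicate number, most known changes were recovered in WT. Those data do not bear on the choice between the fits with and without the block. The p-values measure the spread between these libraries, which may in part be technical, and the groups come from the labels. Intervals cover 95%.

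The study averaged fold changes over individual animals, taken here as the source of the pairing, although the labels do not say that a number is 1 animal. Same-numbered IL-4 and control libraries correlated above 0.1 in their deviations in 13 of 15 WT pairs (0.027-0.561; the exceptions were number 3 at 1 h and at 24 h, 0.096) and in 8 of 8 Stat6-/- pairs (0.791-0.9). The replicate number within genotype was therefore a block in a second fit. Because numbers are nested in genotypes, the comparison of genotypes without IL-4 has no such fit.

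Alternatives were 0.1 FPKM added, no filter, quantile normalization, the block, the compared groups alone, analysis of variance with Tukey's adjustment, and leaving out each number or library. Symbols were matched through RefSeq synonyms; the markers Ly6g and Trac were not matched. The B cell marker list is not reported here. The members, the gene lists and the tests were chosen with earlier results of these data known. Genes named beside the members are the up to 4 per list with the largest change among those called with IL-4 in WT, and the 3 loci with the highest r to each member called; Nt5dc2, Tmem255b, Rprd1b and Gm20412 were named for their exons (GENCODE vM21).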

Additional observations from a re-analysis of the deposited data

Results flagged for a closer look

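In 8 tests of the difference itself the effect of IL-4 differed between the 2 genotypes at a limma adjusted p under 0.05. At 6 h and at 24 h 4 of 9 members passed, where 7.19% and 14.8% of loci passed with the lower response in WT. As WT minus Stat6-/- on the log2 scale the difference was -1.33 for Stab1, -1.23 for Mertk, -1.12 for Msr1 and -0.55 for Scarb1 at 6 h, and -3.27 for Marco, -2.14 for Gas6, -1.76 for Mertk and -1.46 for Stab1 at 24 h. Without all libraries of some WT numbers Stab1 and Scarb1 did not pass at 6 h, and Msr1 did not whichever WT number was left out. Within WT the 24 h response differed from that at 6 h by -3.09 for Marco, -1.37 for Gas6, -0.60 for Mertk and 0.41 for Scarb1. That contrast was chosen after the values were seen, and 27.8% of loci passed it. Mertk and Scarb1 did not pass it without all libraries of some WT numbers.

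Among 80 sets of 4 WT libraries (10 genes in 8 groups) 10 held a library apart from the other 3 by Dixon's criterion, beside about 4 that chance gives at 1 in 20. Of the 10, 5 were sets of Timd4, which lay below the filter. Where 3 libraries are at 0 any value above 0 is flagged, so the 10 cannot be read as an excess over 4. The control numbered 4 held 19.9 FPKM of Marco at 6 h against 12.7-13.3 in the others. The IL-4 library numbered 2 at 3 h held 51.1 FPKM of Scarb1 against 61.2-63.3, and the IL-4 library numbered 4 at 1 h held 22.0 FPKM of Mertk against 18.6-19.1. The 24 h control numbered 2 held 140 FPKM of Gas6 against 179-186, and the 1 h control numbered 2 held 21.1 FPKM of Mfge8 against 28.4-29.4. The other 5 were Timd4 values near 0: 0.0336 at 0 h, 0.0158 in the 1 h controls, 0.0376 with IL-4 at 6 h and 0.0962 in the 6 h controls, all in number 4, and 0.0729 with IL-4 at 3 h in number 3.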

How the results depend on the processing

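The counts of members that passed changed most with the replicate block, for which the share of all loci is not given here. With it 7 members passed at 3 h and 7 (of the WT response) at 6 h, 4 and 7 in the genotype difference at 3 h and 6 h, 6 and 4 between 24 h and 0 h controls of WT and Stat6-/-, and 7 in the change from 6 h to 24 h. The compared groups alone gave 5 in WT at 3 h, 2 (1 of them called) in the genotype difference at 6 h and 0 in the Stat6-/- controls, and quantile normalization also gave 0 there. Tukey's adjustment gave 1 in WT at 3 h and 3 at 6 h. Averaging the 5 control contrasts over all 53 samples gave 2 between genotypes. The cause was not tested.

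Leaving out a number or library gave 2-3, 5-6 and 4-5 members passing in WT at 3, 6 and 24 h, 0-0 in Stat6-/- at every time, and 0-0, 1-4 and 4-5 in the genotype difference at 3, 6 and 24 h. It gave 1-3 in the WT controls and 2-4 in the change from 6 h to 24 h. Fits without a Stat6-/- number or library leave 1 Stat6-/- profile or library in a group. Counts for the Stat6-/- controls and between genotypes are therefore not given, and the counts above that involve Stat6-/- include such fits. Members called then numbered 2-3 at 6 h and 4-5 at 24 h in WT, and 0-1 in the WT controls. Directions turned in differences that had passed with the block alone. The Axl genotype difference at 6 h ranged from -1.02 to 0.16, and was 0.16 and 0.10 without the Stat6-/- IL-4 library numbered 2 and the Stat6-/- control numbered 1. That of Mfge8 at 24 h ranged from -0.53 to 2.97, and was -0.53 and -0.46 without the same 2 libraries at 24 h. The Axl change in Stat6-/- controls ranged from -1.045 to 0.018, the latter without the 24 h control numbered 1. The turned values come from fits without the block that set 1 Stat6-/- number against the mean of both. The level of that number therefore enters them. Of 306 values of single members under the other alternatives 255 kept direction and side of the threshold, 15 lost the threshold, 36 gained it and 0 reversed. Marco at 1.20-2.52 FPKM lies near the added 1 FPKM, which limits the size of its change.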
